A study of Mus musculus with 36 samples.

Results

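The 10 genes described here encode the 5 subunits of the transcription factor NF-kB (Rela, Relb, Rel, Nfkb1 and Nfkb2) and 5 regulators that act on it (Nfkbia, Nfkbie, Nfkbiz, Bcl3 and Tnfaip3). The 5 regulators are called inhibitors below, although the products of Nfkbiz and Bcl3 can also act as coactivators. All 10 genes were chosen by name, with earlier results of these data known. Each had 1 row in every table of counts and of log2 values, 10 of the 40354 genes counted. RNA-seq was performed on primary B cells from mouse bone marrow during B cell to macrophage transdifferentiation (BMT). B cells of C57BL/6J mice were infected with a retrovirus that carries C/EBPα fused to the estrogen receptor (ER) together with human CD4, and hCD4+ cells were placed on inactivated mouse embryo fibroblast (MEF) feeders with IL-7. Estradiol (E2) moves the fusion protein into the nucleus. The 3 constructs were C/EBPα WT, C/EBPα R35A, with alanine in place of arginine 35, and C/EBPα R35K, with lysine in that place. Each was sampled at 0 hr and then at 1, 3, 6, 18 or 120 hr post induction (hpi) in 2 biological replicates, which gives 18 groups and 36 libraries. The labels call the 120 hpi samples macrophages and all others B-cells, and give neither the age of the animals nor whether libraries share animals.

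NF-kB is a family of dimers. RelA, RelB and c-Rel carry transactivation domains, whereas Nfkb1 and Nfkb2 encode the precursors p105 and p100, which are processed to the DNA-binding subunits p50 and p52. In resting cells the dimers are held in the cytoplasm by IκB proteins and by the unprocessed precursors. Signals from Toll-like, interleukin-1 and TNF receptors activate a kinase complex that marks the IκB proteins for degradation, and the freed dimers enter the nucleus and transcribe inflammatory genes together with genes for their own inhibitors. c-Rel is prominent in lymphocytes and in activated macrophages, where it serves in the induction of interleukin-12 family cytokines. The transcript levels given here do not measure nuclear NF-kB protein or its binding.

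Library totals lay between 13044456 and 23131776 counts, with a median of 15471229.5. Levels are given as CPM, read counts scaled to a common library size by TMM over the 36 libraries, and the lowest count of any member in any library was 35. Changes are log2 fold changes from the fits, which differ from ratios of the CPM shown because each fit scales its own libraries. At 120 hpi the gap can decide a call. There Rela in WT cells gave 0.49 in the fit used and 0.62, past 1.5-fold, in a fit of all 36 libraries. The fitted changes are given ± SE from edgeR's quasi-likelihood test, with Benjamini-Hochberg adjusted p-values over all genes of the fit. A gene is said to have risen or fallen where the change was at least 1.5-fold with an adjusted p of at most 0.05. In each group n = 2, so the p-values rest on a spread estimated across all libraries of a fit. The R35K libraries were deposited in a table of their own. Where their levels are set directly beside those of WT or R35A cells, construct and table cannot be told apart. The B cell marker list (8 genes) summed to between 3386 and 3719 CPM at 0 hpi and to between 63.7 and 138 CPM at 120 hpi, and the macrophage list (10 genes) to between 63.0 and 70.3 CPM and then to between 21666 and 33408 CPM. Fibroblast markers, which the feeder cells express, were present although feeders were removed by adherence. All 12 were above 3 counts up to 18 hpi. Their sum lay between 2242 and 2414 CPM at 0 hpi. At 1 hpi it was 4407 and 4400.2 CPM in WT, 4979.8 and 4972 CPM in R35A, and 3987 and 3922 CPM in R35K cells. At 18 hpi it was 5564 and 5493 CPM in WT, 4321 and 4284 CPM in R35A, and 3280.4 and 3303 CPM in R35K cells, and at 120 hpi it lay between 199.5 and 692 CPM, with 11 of the 12 above 3 counts. At 3 and 6 hpi it was likewise lower in both mutants than in WT cells. The part of feeder cells in the changes described below was not tested. Markers of T and NK cells summed to at most 9.44 CPM, and those of neutrophils to between 46.6 and 60.1 CPM at 0 hpi and to at most 10.8 CPM later. In these bulk samples, fewer cells of a type and less RNA per cell cannot be told apart. The methods add IL-3, FLT-3, CSF-1 and SCF to the medium for transdifferentiation without saying whether the 0 hpi cells received them, so in a change from 0 hpi the construct, E2 and the medium cannot be told apart.

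Promoter sequences were read for 7 of the members from RefSeq (GRCm38.p6), and 4 are shown, those of the inhibitors Nfkbia and Nfkbie and of the subunit Rel, which hold the motif that NF-kB itself binds, and that of Bcl3, the member with the largest rise at 1 hpi, which does not. The kB motif, the consensus of 10 bases that NF-kB dimers bind, was searched on both strands in up to 250 bases before each start. It occurs in 3.9006% of the 32841 mouse promoters of the table. It was present before the starts of Nfkbia, Nfkbie and Rel, before each of the 3 starts of Nfkb2 and before 1 of the 2 starts of Tnfaip3, and absent from the windows of Bcl3 and Rela. The windows of Nfkb2 and, but for 3 bases, that window of Tnfaip3 lie inside the genes at the positions given below. Their matches are thus within the annotated genes. The C/EBP letters TTGCNNAA (9.5673% of promoters) were found in none of these windows, and the PU.1 letters AGGAAGT (7.6886%) only before Rel. A match is a run of letters and not a measured binding site. The capitals below mark the kB motif, which in Rel is a pair of overlapping matches, and, nearer the start of the Rel sequence, the PU.1 letters. The Nfkbia sequence is chr12:55492648-55492897 (minus strand), Nfkbie is chr17:45555450-45555699 (plus strand), Rel is chr11:23770971-23771219 (minus strand) and Bcl3, without a match, is chr7:19822771-19823005 (minus strand).
Nfkbia: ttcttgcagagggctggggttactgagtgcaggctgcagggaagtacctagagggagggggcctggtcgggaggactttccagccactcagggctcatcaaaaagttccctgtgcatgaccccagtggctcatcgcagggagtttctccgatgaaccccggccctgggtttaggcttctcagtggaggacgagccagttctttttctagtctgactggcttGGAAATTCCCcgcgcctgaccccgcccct
Nfkbie: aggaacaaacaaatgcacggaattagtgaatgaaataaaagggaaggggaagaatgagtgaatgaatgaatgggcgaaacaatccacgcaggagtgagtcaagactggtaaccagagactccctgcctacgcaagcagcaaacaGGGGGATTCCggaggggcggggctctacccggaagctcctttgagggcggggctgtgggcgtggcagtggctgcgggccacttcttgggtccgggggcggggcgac
Rel: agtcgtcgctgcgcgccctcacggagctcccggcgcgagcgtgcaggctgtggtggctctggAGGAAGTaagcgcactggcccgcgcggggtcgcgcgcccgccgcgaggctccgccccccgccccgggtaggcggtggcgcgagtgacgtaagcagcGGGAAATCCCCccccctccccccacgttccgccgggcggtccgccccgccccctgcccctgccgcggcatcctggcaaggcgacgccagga
Bcl3: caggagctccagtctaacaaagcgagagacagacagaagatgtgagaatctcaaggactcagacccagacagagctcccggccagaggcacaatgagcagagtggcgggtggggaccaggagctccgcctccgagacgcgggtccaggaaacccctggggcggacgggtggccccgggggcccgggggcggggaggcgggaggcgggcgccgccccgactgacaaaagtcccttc

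The first comparison asks how the members changed after induction of each construct. In C/EBPα WT cells, 3 of the 10 genes, Nfkbia, Nfkbiz and Bcl3, rose at 1 hpi, where 10.7% of the 16988 genes tested rose. The same 3 rose at 3 hpi (background 12%) and at 6 hpi (15.1%). At 18 hpi 4 rose (23.9%), Relb being the fourth, and Rel and Nfkbie fell (23.2%). At 120 hpi 7 rose (23.1%), namely all 5 inhibitors together with Rel and Nfkb2. The median log2 change of the members was 0.15 at 1 hpi and 1.86 at 120 hpi, against -0.01 and -0.36 over all genes tested.

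In C/EBPα R35A cells more members had risen than in WT cells at each time from 1 to 18 hpi. At 120 hpi the counts were equal in the main fit only, since Rela and Relb joined the WT count under other settings given below. At 1 hpi 6 members rose, namely Bcl3, Nfkbia, Tnfaip3, Nfkbiz, Nfkb2 and Relb, against 18.3% of the 16988 genes. At 3 hpi Nfkbie joined them (7 members, background 17.9%), and the count was 6 after 6 hr (18.5%), 7 after 18 hr (21%) and again 7 after 120 hr (24.2%), by then with Rel in place of Relb. R35K cells gave 6 at 1 hpi against 15.5% of the 16434 genes tested in that fit, then 7 after 3 hr (15.9%), 7 after 6 hr (16.3%), 8 after 18 hr (18.4%) and 7 after 120 hr (25.4%). No member fell in either mutant in these 10 comparisons by edgeR, where between 16.8% and 39% of genes fell. The median change of the members at 1 hpi was 1.09 in R35A and 0.98 in R35K cells, against -0.01 and -0.04 over all genes.

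**Figure D1:**
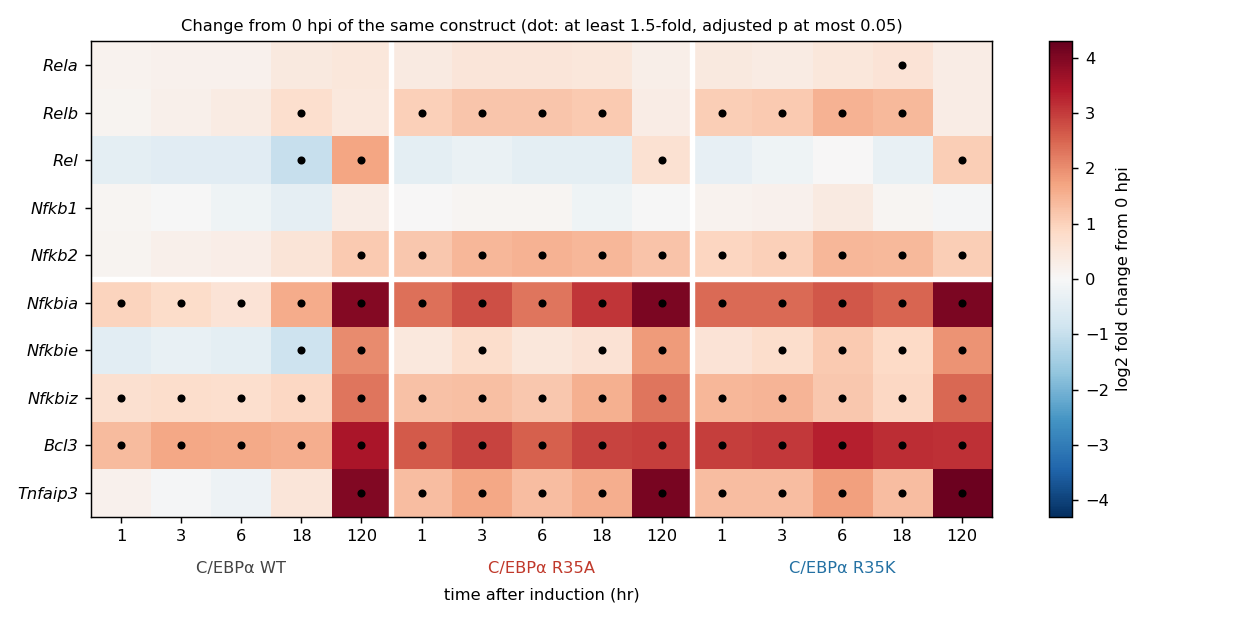
Log2 fold change from 0 hpi of the same construct for the 10 members (rows, subunits above the white line and inhibitors below it) at each time in hr (columns, 3 blocks of constructs). Dots mark genes that rose or fell by at least 1.5-fold with an adjusted p of at most 0.05; at 1 hpi there are 3 dots in the WT block and 6 in each mutant block.

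Among the subunits, Rela (chromosome 19, 5637483 to 5648130, plus strand, mm10), which encodes the chief activating subunit p65, varied least, 1.58-fold between its lowest and highest group mean. Rela had 87.3 and 93.2 CPM at 0 hpi, 98.1 and 100.2 at 1, 101 and 106 at 3, 106 and 103 at 6, 122 and 120.11 at 18 and 141 and 136 at 120 hpi in WT cells. The R35A libraries held 93.3 and 94.1 CPM at 0 hpi, 124 and 123 at 1, 136 and 139.6 at 3, 137 and 136 at 6, 135 and 132 at 18 and 123 and 119 at 120 hpi, and the R35K libraries 87.9 and 95.4 CPM at 0 hpi, 129 and 123 at 1, 117 and 122 at 3, 137 and 133 at 6, 143 and 141 at 18 and 128 and 119.5 at 120 hpi. All libraries after 0 hpi lay above those at 0 hpi. The change passed 1.5-fold only in R35K cells at 18 hpi, with 0.59 ± 0.05 (adjusted p = 2.1e-13), and this was lost without the first R35K replicate at 0 hpi (0.53) or at 18 hpi (0.58). R35A cells at 3 and 6 hpi gave 0.53 and 0.53, and 0.60 at each time with DESeq2's size factors or Wald test. In WT cells at 120 hpi the value was 0.49 ± 0.04, and it lay between 0.60 and 0.65, past 1.5-fold, under 5 other settings and without either replicate of that group.

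Nfkb1 (chromosome 3, 135584655 to 135691547, minus strand), the gene of p105 and p50, varied 1.83-fold. Its levels were 152 and 156 CPM at 0 hpi, 158 and 161 at 1, 155 and 150.5 at 3, 135 and 142 at 6, 119 and 116 at 18 and 211 and 213 at 120 hpi in WT cells, which makes WT at 18 hpi the lowest group. For R35A they were 146 and 157 CPM at 0 hpi, 158 and 157 at 1, 158 and 169.5 at 3, 163 and 161 at 6, 134 and 136 at 18 and 166 and 164 at 120 hpi, within the range of the WT libraries. For R35K they were 158 and 155 CPM at 0 hpi, 187 and 175 at 1, 187 and 179.7 at 3, 218 and 213 at 6, 169 and 173 at 18 and 164 and 161 at 120 hpi, so that R35K at 6 hpi was the highest group, just above WT at 120 hpi. No change from 0 hpi reached 1.5-fold in any construct, and they ranged from -0.40 in WT cells at 18 hpi to 0.40 in R35K cells at 6 hpi. Gm43430 overlaps Nfkb1 on the same strand and had at most 1.55 CPM, and this overlap may affect the count of Nfkb1.

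Relb and Nfkb2 encode RelB and p100, the partners of the non-canonical pathway. Relb (chromosome 7, 19606217 to 19629438, minus strand) stood in WT cells at 27.0 and 27.6 CPM at 0 hpi, 28.9 and 30.0 at 1, 33.0 and 31.1 at 3, 34.7 and 35.3 at 6, 45.7 and 43.6 at 18 and 44.4 and 38.0 at 120 hpi. In R35A cells it stood at 28.2 and 29.1 CPM at 0 hpi, 57.5 and 61.5 at 1, 67.2 and 65.3 at 3, 65.5 and 66.4 at 6, 63.9 and 64.0 at 18 and 39.8 and 38.4 at 120 hpi, and in R35K cells at 29.1 and 27.7 CPM at 0 hpi, 60.1 and 62.4 at 1, 61.4 and 65.7 at 3, 85.4 and 82.8 at 6, 74.5 and 78.9 at 18 and 37.9 and 37.9 at 120 hpi. Both mutants stood above every WT library of the same time from 1 to 18 hpi. At 1 hpi the rise was 1.03 ± 0.06 in R35A (adjusted p = 6.1e-21) and 1.06 ± 0.06 in R35K cells (adjusted p = 5.3e-17), where WT cells gave 0.13 ± 0.07 (adjusted p = 0.11). Relb rose in WT cells at 18 hpi (0.71 ± 0.07). It was the only member that fell between 18 and 120 hpi, by 0.81 in R35A and by 1.07 in R35K cells, and at 120 hpi it did not differ by 1.5-fold between constructs. The WT change there was 0.47 ± 0.07, and it passed 1.5-fold, at 0.60 to 0.62, under 5 other settings and, at 0.71, without the second WT replicate at 120 hpi.

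Nfkb2 (chromosome 19, 46304320 to 46312385, plus strand) had 50.3 and 49.9 CPM at 0 hpi, 52.8 and 54.3 at 1, 60.4 and 55.3 at 3, 59.7 and 63.9 at 6, 73.2 and 75.1 at 18 and 120.18 and 116 at 120 hpi in WT cells. The R35A values were 49.1 and 49.9 CPM at 0 hpi, 108 and 116 at 1, 132 and 138 at 3, 142 and 142 at 6, 131 and 138 at 18 and 134 and 120.0 at 120 hpi, and those of R35K 51.7 and 50.6 CPM at 0 hpi, 99.8 and 99.3 at 1, 104 and 108 at 3, 139.7 and 148 at 6, 133 and 141 at 18 and 115 and 113 at 120 hpi. The R35A libraries at 1 hpi lay just below those of WT at 120 hpi, with a rise of 1.15 ± 0.05 (adjusted p = 1.9e-26), and R35K cells a rise of 0.91 ± 0.05. The WT change was 0.12 ± 0.06 at 1 hpi (adjusted p = 0.078), 0.56 ± 0.05 at 18 hpi and a rise of 1.11 ± 0.05 at 120 hpi. The 18 hpi value passed 1.5-fold, at 0.68, with DESeq2's size factors and with its Wald test, and at 0.59 without the first WT replicate at 18 hpi. Psd overlaps Nfkb2 on the opposite strand and ran from 9.93 to 33.8 CPM in parallel with it. Since the strand used in counting is not stated, the overlap may affect the counts of both genes.

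**Figure D2:**
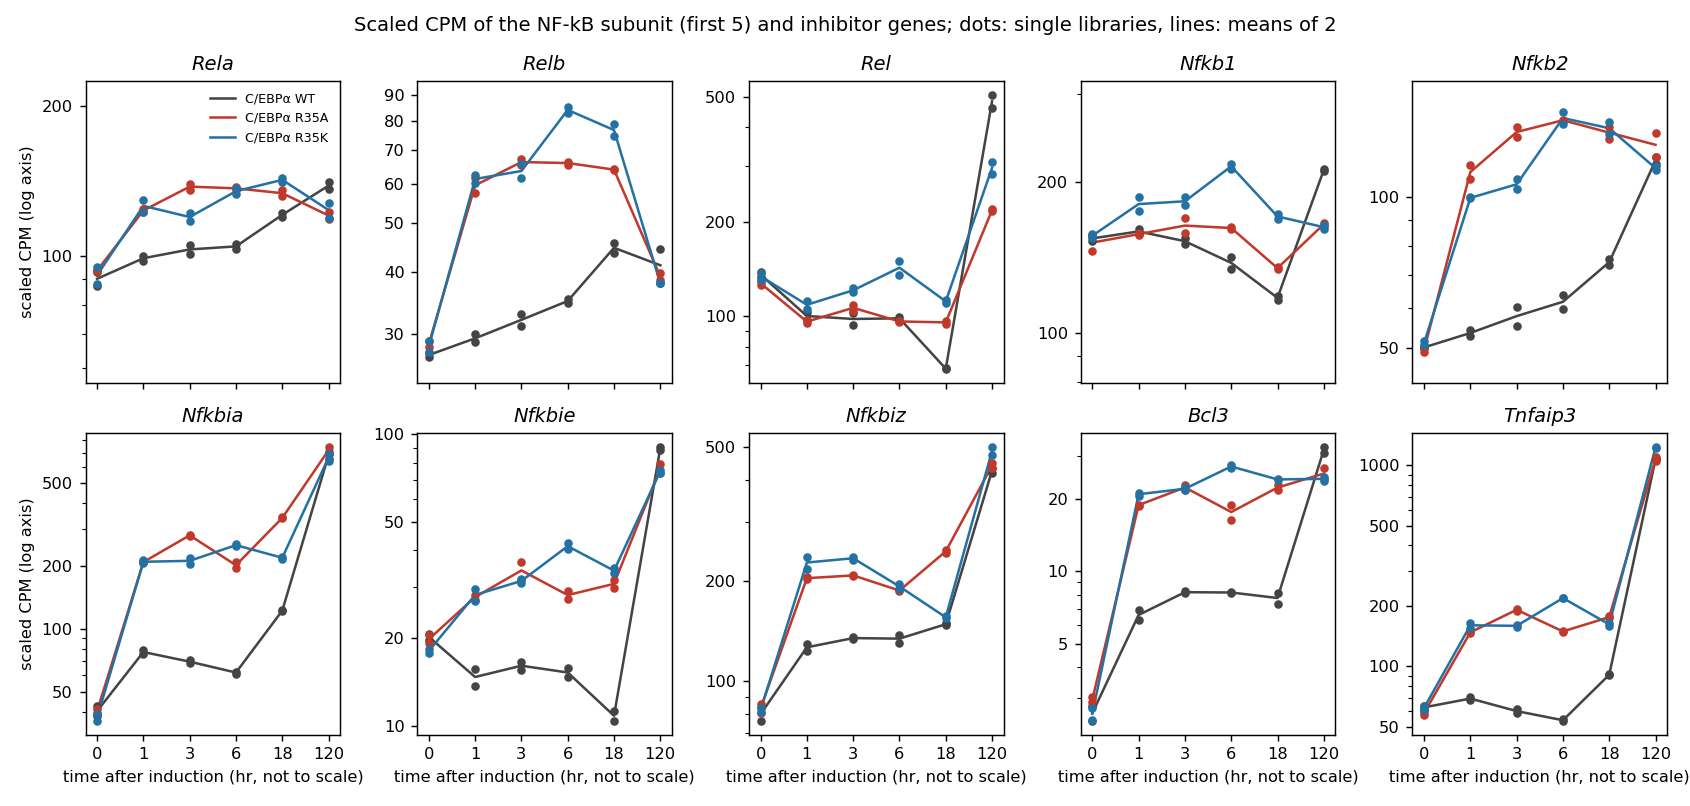
Scaled CPM (log axis, a different range in each panel) against time after induction in hr (equally spaced, not to scale) for the 10 members; dots are single libraries, lines the means of the 2 replicates, gray for WT, red for R35A and blue for R35K. Relb, Nfkb2 and the inhibitors of both mutants lie above WT from 1 to 18 hpi, and Rel of WT lies above both mutants at 120 hpi.

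Rel (chromosome 11, 23736847 to 23770970, minus strand), the gene of c-Rel, had the widest range of the subunits. Like Nfkb1, it was lowest in WT cells at 18 hpi. In WT cells it was at 138 and 133 CPM at 0 hpi, 97.2 and 103 at 1, 102 and 93.7 at 3, 99.6 and 97.4 at 6, 67.9 and 68.2 at 18 and 459.6 and 508 at 120 hpi. R35A cells had 129 and 126 CPM at 0 hpi, 95.3 and 96.9 at 1, 109 and 104 at 3, 96.1 and 96.4 at 6, 94.4 and 96.7 at 18 and 216 and 219 at 120 hpi, whereas R35K cells had 138 and 130.3 CPM at 0 hpi, 106 and 112 at 1, 123 and 119 at 3, 136 and 149.7 at 6, 113 and 110.1 at 18 and 283 and 310.4 at 120 hpi. WT cells thus held both the lowest and the highest group, 7.11-fold apart, and at 120 hpi the constructs did not overlap, in the order WT, R35K and R35A. Rel fell in WT cells at 18 hpi (-1.0 ± 0.05, adjusted p = 5.7e-25) and rose at 120 hpi (1.71 ± 0.04, adjusted p = 5.1e-38). At 120 hpi it rose by 0.65 ± 0.04 in R35A and by 1.05 ± 0.05 in R35K cells. At 1 hpi the changes were -0.41, -0.43 and -0.35 in WT, R35A and R35K cells, all within 1.5-fold.

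Per length, with CPM divided by the kilobases of merged exons, Rela was the highest subunit at 0 hpi, with 37.5%, 39.0% and 37.7% of the 5 subunits' sum in WT, R35A and R35K cells. At 1 hpi the share of Nfkb2 was 14.9% in WT, 23.1% in R35A and 20.1% in R35K cells, and that of Relb 9.70%, 14.5% and 14.6%. Rel made up 10.6% in WT cells at 18 hpi and 39.5% at 120 hpi, where it was 24.3% in R35A and 31.0% in R35K cells. Rel was then the highest subunit in WT cells and Rela in R35A cells, with 32.8%, whereas in R35K cells the libraries of Rela, with 31.4%, and Rel overlapped. The share of Nfkb1 depends on the length used, since its merged exons (12061 bases) are far longer than its longest transcript (4149 bases). With the latter its share at 0 hpi was 33.9% in WT cells, ahead of Rela with 30.2%, and Rel was still the highest in WT cells at 120 hpi with 30.8%.

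**Figure D3:**
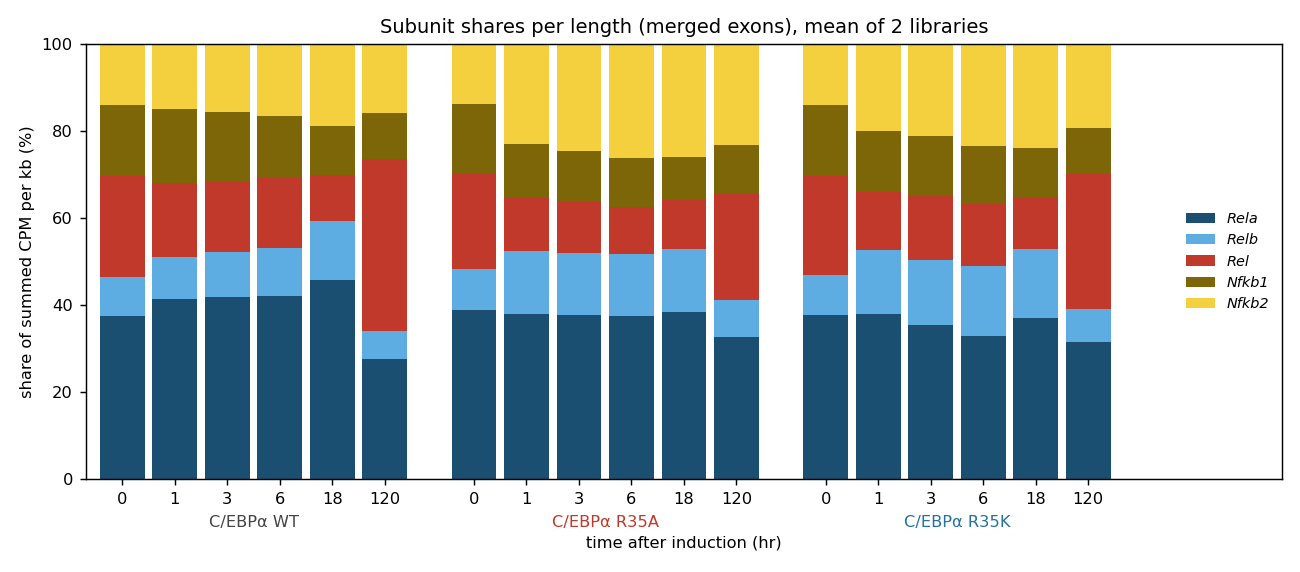
Share in percent of the summed CPM per kilobase of merged exons held by each of the 5 subunit genes, mean of 2 libraries, for each construct and time in hr. Rel takes 39.5% in WT cells at 120 hpi and 24.3% in R35A cells.

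Nfkbia encodes IκBα, the classical inhibitor that NF-kB induces in a negative feedback loop (chromosome 12, 55489410 to 55492647, minus strand). Nfkbia measured 38.2 and 42.6 CPM at 0 hpi, 79.2 and 75.8 at 1, 70.7 and 68.7 at 3, 62.5 and 61.1 at 6, 123 and 122 at 18 and 705 and 654 at 120 hpi in WT cells. In R35A cells the libraries gave 41.3 and 39.4 CPM at 0 hpi, 209.6 and 209 at 1, 280.0 and 282 at 3, 209 and 195 at 6, 338 and 342 at 18 and 746 and 690.0 at 120 hpi, and in R35K cells 36.2 and 39.0 CPM at 0 hpi, 206 and 214 at 1, 218 and 206 at 3, 249 and 255 at 6, 222 and 217 at 18 and 686 and 638 at 120 hpi. The libraries of the 3 constructs lay between 36.2 and 42.6 CPM at 0 hpi, the mutants stood above every WT library from 1 to 18 hpi, and the libraries at 120 hpi overlapped. At 1 hpi Nfkbia rose by 0.96 ± 0.05 in WT (1.95-fold, adjusted p = 2.3e-21), 2.35 ± 0.05 in R35A (5.1-fold, adjusted p = 1.7e-40) and 2.43 ± 0.05 in R35K cells (5.38-fold, adjusted p = 6.7e-30). WT cells then held between 61.1 and 70.7 CPM at 3 and 6 hpi, with a rise of 0.60 ± 0.06 over 0 hpi at 6 hpi. That call was lost without a low-count filter (0.58) and without the first WT replicate at 0 hpi (0.53). At 120 hpi the rises were 3.95, 4.03 and 4.04. From 1 hpi on Nfkbia was the highest member per kilobase of merged exons in every construct, at 48.1 CPM per kb in WT and 129.9 CPM per kb in R35A cells at 1 hpi.

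Nfkbie, which encodes IκBε, an inhibitor with a preference for c-Rel and RelA dimers (chromosome 17, 45555703 to 45563169, plus strand), parted WT from mutant cells. It was at 19.7 and 20.7 CPM at 0 hpi, 15.7 and 13.8 at 1, 15.6 and 16.6 at 3, 14.7 and 15.8 at 6, 10.4 and 11.3 at 18 and 88.7 and 90.7 at 120 hpi in WT cells. The level in R35A cells was 19.2 and 20.5 CPM at 0 hpi, 28.2 and 27.1 at 1, 31.8 and 36.5 at 3, 29.1 and 27.2 at 6, 29.8 and 31.7 at 18 and 79.1 and 73.8 at 120 hpi, and in R35K cells 18.3 and 17.8 CPM at 0 hpi, 29.4 and 26.9 at 1, 30.9 and 32.0 at 3, 42.3 and 40.5 at 6, 34.8 and 33.4 at 18 and 75.7 and 73.9 at 120 hpi. Between 1 and 18 hpi each WT library lay below, and each mutant library above, all libraries of its own construct at 0 hpi. In WT cells Nfkbie changed by -0.44 ± 0.09 at 1 hpi, within 1.5-fold, and fell by 18 hpi (-0.90 ± 0.10, adjusted p = 1.1e-11). R35A cells had risen at 3 hpi (0.75 ± 0.08) and 18 hpi (0.61 ± 0.08), and the latter was lost without the first R35A replicate at 0 hpi (0.57) or the second at 18 hpi (0.58). R35K cells had risen at 3 hpi (0.75 ± 0.07), 6 hpi (1.13 ± 0.07) and 18 hpi (0.87 ± 0.07), and their value of 0.58 ± 0.08 at 1 hpi passed 1.5-fold, at 0.59 to 0.67, under 5 other settings. At 120 hpi Nfkbie rose in each construct, by 2.02, 1.82 and 1.95 in WT, R35A and R35K cells.

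Nfkbiz and Bcl3 encode the nuclear IκB proteins IκBζ and BCL-3, which bind p50 or p52 dimers and can act as coactivators. Nfkbiz (chromosome 16, 55811375 to 55838899, minus strand) had 83.5 and 76.1 CPM at 0 hpi, 124 and 129 at 1, 136 and 134 at 3, 138 and 130.3 at 6, 147 and 149 at 18 and 419 and 433 at 120 hpi in WT cells. The R35A libraries were at 85.8 and 80.2 CPM at 0 hpi, 202 and 205 at 1, 206 and 208 at 3, 187 and 186 at 6, 247 and 243 at 18 and 448 and 435 at 120 hpi, and the R35K libraries at 83.2 and 81.0 CPM at 0 hpi, 217 and 236 at 1, 231 and 236 at 3, 189 and 195 at 6, 156 and 155 at 18 and 474 and 502 at 120 hpi. Nfkbiz rose at each time in each construct, and at 1 hpi by 0.69 ± 0.04, 1.27 ± 0.04 and 1.41 ± 0.04 in WT, R35A and R35K cells. At 18 hpi the R35K libraries stood a little above those of WT and the R35A libraries far above both, and Nfkbiz was the 1 member whose change at 18 hpi was lower in R35K than in R35A cells (-0.64 ± 0.06, adjusted p = 5.6e-12).

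Bcl3 (chromosome 7, 19808462 to 19822770, minus strand, 179 kb from Relb) was the least abundant member. It had 2.40 and 2.78 CPM at 0 hpi, 6.90 and 6.30 at 1, 8.29 and 8.12 at 3, 8.25 and 8.11 at 6, 8.16 and 7.35 at 18 and 32.8 and 31.0 at 120 hpi in WT cells. R35A cells reached 3.02 and 2.87 CPM at 0 hpi, 18.9 and 18.7 at 1, 21.7 and 22.8 at 3, 16.4 and 18.9 at 6, 21.8 and 22.7 at 18 and 26.8 and 24.04 at 120 hpi, and R35K cells 2.44 and 2.71 CPM at 0 hpi, 20.6 and 21.2 at 1, 22.3 and 21.7 at 3, 27.6 and 26.8 at 6, 24.2 and 23.9 at 18 and 23.6 and 24.7 at 120 hpi. All mutant libraries after 0 hpi lay above all WT libraries before 120 hpi, and WT at 120 hpi was the highest group. At 1 hpi the rise was 1.37 ± 0.17 in WT (adjusted p = 8.8e-10), 2.65 ± 0.12 in R35A (adjusted p = 4.4e-25) and 2.97 ± 0.12 in R35K cells (adjusted p = 4.0e-21), the largest of any member in each construct. Gm16174 and Gm16175 overlap Bcl3 on the opposite strand and had at most 3.26 and 0.796 CPM, and this overlap may affect the count of Bcl3 as well.

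Tnfaip3 encodes A20, a ubiquitin-editing enzyme that ends signaling upstream of the kinase complex (chromosome 10, 19000910 to 19015657, minus strand). Tnfaip3 stood at 61.2 and 63.8 CPM at 0 hpi, 68.3 and 70.0 at 1, 58.5 and 61.3 at 3, 54.5 and 53.4 at 6, 90.1 and 91.6 at 18 and 1073 and 1079.5 at 120 hpi in WT cells. R35A cells had 57.4 and 59.6 CPM at 0 hpi, 149 and 147 at 1, 193 and 189 at 3, 150.1 and 148 at 6, 177 and 174 at 18 and 1055 and 1099 at 120 hpi, and R35K cells had 60.8 and 63.4 CPM at 0 hpi, 165 and 155 at 1, 161 and 157 at 3, 218 and 219 at 6, 158 and 165 at 18 and 1239 and 1224 at 120 hpi. In WT cells it lay between 53.4 and 70.0 CPM up to 6 hpi and carried most of its rise between 18 and 120 hpi (3.44 ± 0.04). The WT change was 0.17 ± 0.04 at 1 hpi, -0.23 ± 0.05 at 6 hpi and 0.54 ± 0.04 at 18 hpi, the last of which passed 1.5-fold, at 0.65, with DESeq2's size factors and with its Wald test. At 1 hpi Tnfaip3 rose by 1.31 ± 0.04 in R35A (adjusted p = 2.2e-32) and 1.31 ± 0.04 in R35K cells (adjusted p = 8.2e-24). At 120 hpi the rises were 3.98, 4.08 and 4.21 in WT, R35A and R35K cells.

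The second comparison asks whether the constructs differ, and was tested as the difference in the change from 0 hpi. At 0 hpi 0 of the 10 members differed by edgeR between R35A and WT cells, as did 0 of the 16988 genes (0%), 1 member had an unadjusted p under 0.05, and DESeq2 called 0. The differences ranged from -0.09 to 0.19, and their 95% intervals from -0.21 to 0.59. The comparisons of R35A and of R35K with WT share the WT libraries and are therefore given side by side.

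At 1 hpi the change was higher in R35A than in WT cells for 7 members, against 5.29% of the genes tested, and higher in R35K than in WT cells for the same 7, against 6.84%. These were Nfkbia (1.39 ± 0.07 and 1.54 ± 0.08), Bcl3 (1.28 ± 0.23 and 1.67 ± 0.23), Tnfaip3 (1.143 and 1.22), Nfkb2 (1.04 and 0.86), Nfkbie (0.89 and 1.1), Relb (0.89 and 1.0) and Nfkbiz (0.59 and 0.80). The R35A value of Nfkbiz lay at the threshold and fell under it, to between 0.52 and 0.55, without the first WT replicate at 0 or at 1 hpi or the second R35A replicate at 0 hpi. Rela, Rel and Nfkb1 did not reach 1.5-fold in either comparison. Beside these values, the macrophage marker sum at 1 hpi was 874 and 859.8 CPM in WT, 3811 and 3793 CPM in R35A and 8355 and 8207 CPM in R35K cells, and the B cell marker sum 1697 and 1695 CPM, 519 and 513 CPM and 921 and 931 CPM. The feeder marker sum was above WT in R35A and below WT in R35K cells. The part of these shifts in marker levels in the members' differences was not tested.

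The counts at later times were 6 for R35A and 7 for R35K at 3 hpi (background 5.53% and 6.14%), 6 and 7 at 6 hpi (4.26% and 7.66%) and 6 and 7 at 18 hpi (5.47% and 8.91%), all higher in the mutant. The largest was Nfkbia in R35K cells at 6 hpi (2.13 ± 0.08), and at 18 hpi Nfkbie led with 1.51 ± 0.12 in R35A and 1.81 ± 0.12 in R35K cells. Nfkb1 was among the 7 in R35K cells at 6 hpi (0.62 ± 0.06), a call lost with DESeq2's size factors or Wald test (0.58) and without the first WT replicate at 6 hpi (0.54). At 18 hpi Rel was higher in R35K cells (0.73 ± 0.07) and Relb was not called in R35A cells (0.43 ± 0.09). After 1 hpi Nfkbiz was called in R35A cells at 18 hpi (0.65 ± 0.06), which was lost without the first WT replicate at 0 hpi (0.58), and in R35K cells at 3 hpi (0.75 ± 0.06). The feeder marker sum was lower, and the macrophage marker sum higher, in both mutants than in WT cells at 3, 6 and 18 hpi, the latter with 819 and 819.7 CPM in WT, 3443 and 3477 CPM in R35A and 5268 and 5061 CPM in R35K cells at 18 hpi. The B cell marker sum was lower in both mutants at 3 and 6 hpi, and at 18 hpi it was 329 and 332 CPM in WT, 226 and 226 CPM in R35A and 350.3 and 341 CPM in R35K cells. At 18 hpi each of the 10 members had both R35A libraries and both R35K libraries above both WT libraries, as did 34.2% and 38.1% of the 17277 genes. With DESeq2's size factors 10 and 9 members did, Nfkbiz of R35K being the exception, against 25.1% and 28%.

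At 120 hpi only Rel of the 10 members differed, lower in R35A (-1.05 ± 0.06, adjusted p = 1.1e-20) and lower in R35K cells (-0.69 ± 0.06, adjusted p = 5.6e-13), where 4.63% and 2.63% of genes were lower. Both R35A libraries lay below both WT libraries for 5 members, against 28.5% of the 17277 genes, and both R35K libraries for 7, against 27.8%, and of these only Rel passed the test. The macrophage marker sum was then 21981 and 21666 CPM in WT, 30583 and 33408 CPM in R35A and 29274 and 28776 CPM in R35K cells. No member was called higher (9.85% and 7.51%). For Nfkbia the differences were 0.09 (95% interval -0.05 to 0.23) and 0.07 (-0.08 to 0.21), intervals that do not reach 1.5-fold. Bcl3 gave -0.51 (-0.95 to -0.08) in R35A cells, and its call appeared, at -0.59, without the first R35A replicate at 120 hpi.

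**Figure D4:**
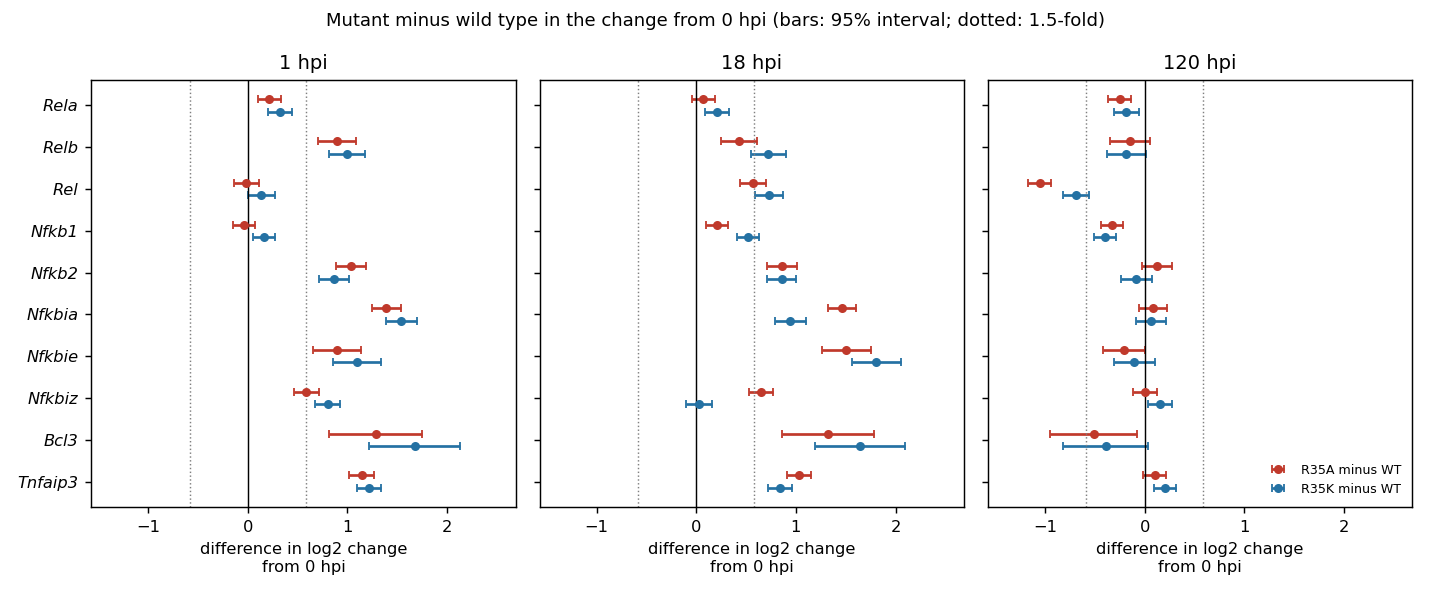
Difference between mutant and WT in the log2 change from 0 hpi (x axis) for the 10 members (rows) at 1, 18 and 120 hpi; points are fitted values, bars 95% intervals, red for R35A and blue for R35K, dotted lines 1.5-fold. Most points lie to the right at 1 and 18 hpi, and at 120 hpi only Rel lies beyond a dotted line, to the left.

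The 2 mutants were compared with each other in the same way, a comparison added after the data were seen. At 1 hpi 0 of the 10 members differed by edgeR, with background 5.83% of the 17277 genes, 3 members at an unadjusted p under 0.05 and 0 by DESeq2. By edgeR 3 members had an adjusted p of at most 0.05, with differences within 1.5-fold. The differences ranged from -0.22 to 0.34 and their 95% intervals from -0.36 to 0.75, the upper end being that of Bcl3. At 3 and 120 hpi 0 differed too (3.02% and 1.61%), with 6 and 3 at an unadjusted p under 0.05 and 0 by DESeq2. By edgeR 4 and 1 had an adjusted p of at most 0.05, again within 1.5-fold. At 6 hpi R35K exceeded R35A for Bcl3 (0.81 ± 0.20) and Nfkbie (0.70 ± 0.11), 2 members against 4.69%. At 18 hpi the 1 difference was that of Nfkbiz given above (1.19% lower), and Nfkbia joined it, at -0.59, without the first R35K replicate at 0 hpi.

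A further set of values concerns timing, for the 7 members that rose in each construct at 120 hpi. At 1 hpi R35A cells had gone through 93.6% of their own log2 change to 120 hpi for Nfkb2, 88.9% for Bcl3, 58.3% for Nfkbia, 55.5% for Nfkbiz, 32.2% for Tnfaip3 and 24.9% for Nfkbie. The WT figures were 10.6%, 39.1%, 24.4%, 29.9%, 4.23% and -21.7%, and those of R35K cells 86.0%, 94.8%, 60.1%, 57.1%, 31.2% and 30.0%. Rel had moved the opposite way in each construct, with -65.8%, -24.3% and -33.8% in R35A, WT and R35K cells. Its changes at 1 hpi were close to each other, at -0.43, -0.41 and -0.35, and all within 1.5-fold. The percentages differ mainly through the changes to 120 hpi, of 0.65, 1.71 and 1.05. Set against WT cells at 18 hpi, in a comparison added after the data were seen, R35A cells at 1 hpi were higher for Nfkbie (1.33), Bcl3 (1.26), Nfkbia (0.76) and Tnfaip3 (0.68), 4 members against 7.66% of genes. Nfkb2, at 0.58, lay at the threshold and passed it, at 0.59 to 0.63, under 3 other settings and without the second WT replicate at 18 hpi or the first R35A replicate at 1 hpi.

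Between successive times, 0 members changed by edgeR from 1 to 3 hpi or from 3 to 6 hpi in any construct, where 1.04%, 0.553% and 0.347% of genes changed in WT, R35A and R35K cells in the first interval and 1.04%, 0.177% and 1.19% in the second. Between 3 and 10 members had an unadjusted p under 0.05 in these 6 comparisons, and DESeq2 called 0. By edgeR 2, 6 and 0 members in WT, R35A and R35K cells had an adjusted p of at most 0.05 in the first interval. In the second they were 3, 5 and 10, and all these changes were within 1.5-fold. From 6 to 18 hpi Nfkbia rose in WT (1.0 ± 0.05) and R35A cells (0.75 ± 0.04) and Tnfaip3 in WT cells (0.77 ± 0.04), 2 members against 3.28% of genes and 1 against 1.52%. In R35K cells 0 members changed by edgeR in that interval, against 5.4% of genes, with 9 at an unadjusted p under 0.05 and 0 by DESeq2. By edgeR 6 had an adjusted p of at most 0.05, with changes within 1.5-fold. From 18 to 120 hpi 7 members rose in WT cells (27.5%), led by Tnfaip3, Nfkbie (2.92) and Rel (2.70) and including Nfkb1 (0.72). Nfkb2 joined them, at 0.59 to 0.70, under 5 other settings and without any 1 of the 4 WT libraries. In R35A (24.5%) and R35K cells (24.7%) 5 rose, namely Tnfaip3, Nfkbie, Rel, Nfkbia and Nfkbiz, and Relb fell (29.4% and 28.5%).

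The rest of the pathway was read from 5 lists, which were chosen with earlier results of these data known. Their counts are therefore set beside the shares of all genes as a description and not as a test. Over all genes tested, 10.7% rose and 9.27% fell in WT cells at 1 hpi, 18.3% and 18.9% in R35A cells and 15.5% and 17.4% in R35K cells. Of 33 genes that NF-kB is known to induce, 32 were tested in the WT and R35A fit. At 1 hpi 22 of them rose and 1 fell in WT cells, 29 rose and 0 fell in R35A cells, and 26 of 31 rose in R35K cells, with median log2 changes of 1.53, 3.00 and 2.79. With genes at 3 or fewer counts held at that floor the medians were 1.48, 2.69 and 2.79. In the difference from WT at 1 hpi, 15 of 32 were higher in R35A and 18 of 32 in R35K cells, and none was lower, where 5.29% and 6.84% of all genes were higher and 8.74% and 5.08% lower. Cxcl2, a neutrophil chemokine, had 1.17 and 1.35 CPM at 0 hpi and 13.8 and 14.3 CPM at 1 hpi in WT cells, and 63.8 and 63.6 CPM in R35A cells. Acod1, which makes itaconate, had at most 2 counts in any library at 0 hpi, 2.56 and 3.04 CPM in WT, 33.9 and 31.7 CPM in R35A and 30.4 and 33.8 CPM in R35K cells at 1 hpi. Both R35A libraries at 1 hpi lay above both WT libraries at 120 hpi (25.1 and 26.7 CPM). Clec4e, the receptor Mincle, reached 24.9 and 27.4 CPM in WT and 83.1 and 86.6 CPM in R35A cells at 1 hpi. Cd83 and Ccl4 were at most 1.64 and 0.406 CPM at 0 hpi and reached 752 and 767 CPM and 209.9 and 205 CPM in WT cells at 120 hpi.

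Of the 15 receptors upstream of NF-kB, 7 rose and 3 fell in WT cells at 1 hpi, 12 rose and 2 fell in R35A cells, and of 14 tested 11 rose and 2 fell in R35K cells, beside background rises of 10.7%, 18.3% and 15.5% and falls of 9.27%, 18.9% and 17.4%. Tlr2, a receptor of bacterial lipoproteins, went from 5.01 and 5.06 CPM to 42.9 and 45.3 CPM in WT cells and from 4.83 and 5.22 CPM to 176 and 169.9 CPM in R35A cells, a difference in change of 1.92 ± 0.13 (adjusted p = 5.1e-18). Tlr7 and Tlr1 differed by 2.12 and 3.33, and Tlr1 was between 0.516 and 0.783 CPM in WT cells at 0 and 1 hpi. Of the 9 ligand genes 8 were tested, and 3 rose and 3 fell in WT cells, and 3 rose and 4 fell in either mutant. Tnf stood at 10.4 and 10.4 CPM in WT, 41.3 and 41.8 CPM in R35A and 40.0 and 40.9 CPM in R35K cells at 1 hpi, with 4.39 and 3.70 CPM in WT cells at 0 hpi. Il1b and Il1a had at most 4 and 5 counts at 0 hpi, and at 1 hpi Il1b was at 4.34 and 3.90 CPM in WT and 14.2 and 11.8 CPM in R35A cells. Tnfsf11, the gene of RANKL, kept 18.3 and 17.2 CPM in WT cells at 1 hpi, was at 8.37 and 9.13 CPM in R35A cells, and had at most 2 counts in any library at 120 hpi.

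Of the 35 kinases and adaptors, 4 rose and 1 fell in WT cells at 1 hpi, 9 rose and 4 fell in R35A and 12 rose and 4 fell in R35K cells, with median changes of 0.03, 0.23 and 0.29. As shares of the list the rises were 11.4%, 25.7% and 34.3%, against 10.7%, 18.3% and 15.5% of all genes, so that the WT share was near that of all genes. Traf1, an adaptor of TNF receptors, rose by 2.18 ± 0.26 in WT, 3.93 ± 0.19 in R35A and 3.93 ± 0.23 in R35K cells, and Irak2, a kinase of the Toll-like receptor pathway, by 1.18, 2.24 and 2.17. Card9, an adaptor of C-type lectin receptors in myeloid cells, rose by 1.55, 1.70 and 2.24. Of 18 further inhibitors, 3 rose in WT, 4 in R35A and 5 in R35K cells at 1 hpi, shares of 16.7%, 22.2% and 27.8% of the list against the background rises just given. Among them Tnip3, an A20-binding protein, rose by 3.95 in WT and 5.03 in R35A cells, and Zc3h12a, an RNase that degrades inflammatory transcripts, by 1.13 and 1.67. Nfkbid, a nuclear IκB, rose in WT cells (0.64 ± 0.10) and had 0.38 ± 0.10 in R35A cells, within 1.5-fold, and Tnip1 rose in R35A cells (0.85).

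Of the induced genes 28 of 32 rose in WT and in R35A cells and 26 of 31 in R35K cells at 120 hpi, against 23.1%, 24.2% and 25.4% of all genes. In the difference from WT at that time, 6 of 32 were higher and 2 lower in R35A, and 3 higher and 1 lower in R35K cells, where 9.85% and 4.63% of all genes were higher and lower in R35A and 7.51% and 2.63% in R35K cells. The medians of these differences were -0.04 and -0.05, against 0.08 and 0.03 over all genes tested, and the first became 0.05 with the floor.

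Over the 18 group means of log2 CPM, the members fell into patterns that are described here by Pearson's r without a test, since the groups share the BMT time course. Nfkbia and Nfkbiz were most alike (r = 0.965), followed by Nfkb2 and Rela (0.952) and Nfkbie and Tnfaip3 (0.944). Rel and Relb were least alike (-0.185). Among 17277 genes the closest to Nfkbia were Rab20 (0.992) and Cxcl2 (0.990), to Tnfaip3 Gm6377 (0.992) and Hcar2 (0.991), to Bcl3 Csf2rb2 (0.990) and Tgm2 (0.987), and to Nfkbiz Nxpe5 (0.986) and Ccl2 (0.986). Relb was closest to Osgin1 (0.983) and Creb5 (0.977), Rel to Fam49b (0.981) and Ptpn22 (0.979), Nfkbie to Slfn10-ps (0.981) and Adap1 (0.978), Rela to Sh2b2 (0.974) and St3gal1 (0.968), Nfkb2 to Psd (0.973), which overlaps it, and St3gal1 (0.969), and Nfkb1 to Cisd2 (0.909) and Zfp709 (0.867).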

How the data were processed

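RNA-seq was carried out on 36 libraries of B cells undergoing BMT, 18 groups with 2 biological replicates each. The groups are those of the labels. Nothing states that the replicates came from separate animals or infections, so the p-values measure the spread between these samples. According to the methods and the submitters' processing notes, TruSeq stranded mRNA libraries were sequenced single-end, checked with FastQC and aligned with STAR 2.5.0a, which also counted reads per gene, to mm10. The annotation release and the strand column are not given in the sources used here. The deposited counts are the authors' raw reads per gene for 40354 genes, in one table for WT and R35A and one for R35K. The deposited log2 values were made by the authors from counts normalized with DESeq2 1.14.1, for 19067 genes, and served as a check only. Over 150 changes of the members from 0 hpi, their group differences departed from the edgeR values by -0.00786 to 0.135, and the 90 changes past 1.5-fold had the same sign in both.

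From the counts, CPM were scaled by TMM over the 36 libraries. Changes were tested with the quasi-likelihood F test of edgeR 4.0.16 (limma 3.58.1, R 4.3.3) after filterByExpr, in a fit of the 24 WT and R35A libraries (16988 genes), a fit of the 12 R35K libraries (16434 genes) and a fit of all 36 for R35K against the other constructs (17277 genes), each construct being set against its own 0 hpi. Genes were called from 1.5-fold, with p-values adjusted over all genes tested (Benjamini-Hochberg) and a limit of 0.05. The WT and R35A fit was also run on counts simulated from its own estimates, with known folds in R35A cells at 1 hpi. Such counts cannot show whether the estimated spread is right. The alternatives were DESeq2 1.42.0 with its Wald test, its size factors in edgeR, other low-count filters, the 36-library fit, the construct alone, a replicate block and leaving out each library. Levels per kilobase and positions use GENCODE vM21 (mm10), which held 97.1% of the symbols. Promoters are from RefSeq, GRCm38.p6. All members were tested in every comparison, and where a count is given not all of them are named. From the pathway lists, genes were named from the 3 with the largest change at 1 hpi in R35A and at 120 hpi in WT cells of each list, and for likeness the 2 genes with the highest r per member. A gene that this rule names is not reported here. The members and lists were chosen with earlier results of these data known, and 2 comparisons, R35K with R35A and R35A at 1 hpi with WT at 18 hpi, as well as the floor of 3 counts, were added after the data were seen. Library totals were 13044456 to 23131776 counts. The common biological coefficient of variation, which edgeR estimates from the spread of the replicates, was 3.17% to 3.49% in the fits. Whether separate animals or infections would differ more cannot be read from it.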

Additional observations from a re-analysis of the deposited data

Results flagged for a closer look

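The members whose change from 0 hpi differed between a mutant and WT cells by the interaction test numbered 7 for R35A and 7 for R35K at 1 hpi, 6 and 7 at 3 hpi, 6 and 7 at 6 hpi, 6 and 7 at 18 hpi, and 1 and 1 at 120 hpi. Those up to 18 hpi were all higher in the mutant, where between 4.26% and 5.53% of all genes were higher in R35A and between 6.14% and 8.91% in R35K cells, and that at 120 hpi was lower, as were 4.63% and 2.63% of genes. In some of these differences the fitted changes of the constructs had opposite signs. Nfkbie went down in WT and up in the mutants, with differences on the log2 scale of 0.892 (R35A) and 1.1 (R35K) at 1 hpi, 1.08 and 1.13 at 3 hpi, 0.898 and 1.6 at 6 hpi, and 1.51 and 1.81 at 18 hpi. Tnfaip3 had opposite signs at 3 hpi, with differences of 1.74 in R35A and 1.42 in R35K cells, although its WT libraries at 3 hpi overlapped those at 0 hpi, and at 6 hpi, with 1.56 and 2.03, although the WT changes were within 1.5-fold. Nfkb1 had them in R35K cells at 6 hpi, with a difference of 0.621, although neither construct's own change reached 1.5-fold.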

How the results depend on the processing

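No change of a member and no difference between constructs that had passed the test turned its sign under any setting. The counts of called members stayed within 1.5 times those given, except that leaving out 1 library moved the count for R35A against WT at 120 hpi between 1 and 2 (2 without the first R35A replicate at 120 hpi, by Bcl3, adjusted p = 0.048 by edgeR) and that for R35K against R35A at 18 hpi between 1 and 2 (2 without the first R35K replicate at 0 hpi, by Nfkbia). Calls of single members that changed lay near 1.5-fold, and beside those given above they were Nfkbiz in R35A against WT at 3 hpi (0.59 with DESeq2), Rel in R35A against WT at 18 hpi (0.59 without the low-count filter) and Rel in R35K against WT at 6 hpi (0.59 and 0.62 without the first R35K replicate at 0 or 6 hpi), all gained. The cause was not tested. With DESeq2 size factors the median change of all genes moved by 0.12 in WT cells at 18 hpi, by 0.15, 0.12 and 0.13 at 120 hpi in WT, R35A and R35K cells and by -0.10 for R35K against WT at 18 hpi, where genes higher and lower went from 1539 and 764 to 1241 and 1094, and the members' differences there are relative to that shift. The correlation of the deviations of same-numbered replicates had a median of -0.00289 over 153 pairs of groups and was over 0.1 in 32 of them, not in all, so the numbers were not taken to pair the libraries, and with a replicate block the members called at 1 hpi remained 3 in number in WT, 6 in R35A and 6 in R35K cells. The 2 libraries per group limit the precision, and differences past 1.5-fold may have been missed for Bcl3, whose counts were the lowest and whose intervals reached beyond that fold in comparisons where it was not called.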
